A study of Homo sapiens with 9 samples.

Results

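Death receptors, caspases and their inhibitors were followed as 8 named genes in cells of A375, an established line of human melanoma known for an activating BRAF mutation. They were taken by gene name from the 37118 genes listed for 9 RNA sequencing libraries: the receptors TNFRSF10A, TNFRSF10B and FAS, the adaptor FADD, the initiator caspases CASP8 and CASP9, and the inhibitors CFLAR and XIAP. The cells, labelled WT, were given 0, 20 or 40 mM metformin (3 libraries for each dose), and no other agent is named. Metformin is a biguanide given against type 2 diabetes; the labels give no time of exposure, and 1 cell line was studied. The labels do not say whether replicates were separate cultures, so p-values measure the spread among these 9 libraries alone, and that spread may be technical.

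In the extrinsic route to apoptosis, a ligand such as TRAIL or Fas ligand binds a death receptor, which recruits FADD through paired death domains, and FADD in turn gathers and activates caspase-8. CFLAR, which encodes c-FLIP, resembles caspase-8 without its protease activity and competes for that complex. In the intrinsic route caspase-9 is activated on APAF1 after cytochrome c leaves the mitochondria, and XIAP binds and blocks caspase-9 and the executioner caspases. Melanoma cells commonly carry TRAIL receptors. The series asks how metformin acts on A375 cells, with ferroptosis named in its title, and the comparisons here ask what each dose did to this other death pathway at the transcript level.

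CFLAR and CASP8 lie in 1 cluster on chromosome 2. For each, 1 promoter is shown, because CFLAR had the larger log2 fold change of the pair. FAS was not called, and 1 of its promoters is shown because it holds the same kind of match as CFLAR. Of the 4 promoters of CFLAR and the 3 of FAS, only the promoter shown holds this match. None of the 3 CASP8 promoters holds it. Each promoter runs from 250 bases before to 50 bases after a transcript start on the sense strand, from RefSeq, build GRCh38.p14. Capitals mark this match, to the consensus of NF-kB, a transcription factor family of inflammatory and survival signalling.
CFLAR promoter, plus strand, chr2:201118466-201118765: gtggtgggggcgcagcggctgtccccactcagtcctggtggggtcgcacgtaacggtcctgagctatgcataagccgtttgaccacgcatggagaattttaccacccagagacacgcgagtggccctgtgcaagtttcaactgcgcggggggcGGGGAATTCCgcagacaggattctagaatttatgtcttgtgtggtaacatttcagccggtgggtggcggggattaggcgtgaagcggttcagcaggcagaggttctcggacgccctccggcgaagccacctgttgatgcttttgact
CASP8 promoter, plus strand, chr2:201233213-201233512: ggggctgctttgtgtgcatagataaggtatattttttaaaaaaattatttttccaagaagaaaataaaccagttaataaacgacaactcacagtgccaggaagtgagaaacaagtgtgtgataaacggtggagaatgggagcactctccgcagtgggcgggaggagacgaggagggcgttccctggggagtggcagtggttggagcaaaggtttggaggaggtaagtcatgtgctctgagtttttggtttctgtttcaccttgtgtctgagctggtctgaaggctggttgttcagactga
FAS promoter, plus strand, chr10:88991181-88991480: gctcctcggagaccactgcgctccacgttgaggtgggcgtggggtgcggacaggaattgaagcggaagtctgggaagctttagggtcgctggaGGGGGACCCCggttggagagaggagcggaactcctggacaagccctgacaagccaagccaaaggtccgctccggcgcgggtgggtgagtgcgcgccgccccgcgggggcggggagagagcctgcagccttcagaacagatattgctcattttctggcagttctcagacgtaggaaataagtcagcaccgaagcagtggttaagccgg

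RefSeq promoters of 6 of the 8 genes were searched, 16 in all. No promoter of TNFRSF10A or TNFRSF10B was among them, so the motif counts do not cover the TRAIL receptors. The NF-kB consensus, searched on both strands, stood in the CFLAR and FAS promoters shown and in no other of the 16. It stood in 5.91% of all 35116 promoters, and in a promoter of 7.09% of 27305 genes. The AP-1 element TGANTCA stood in 1 promoter each of FAS, FADD and CFLAR and in 2 of CASP8. It stood in 7.71% of all promoters, and in a promoter of 9.37% of 27305 genes. The C/EBP-ATF element TGATGNAAN and its ATF4 form TTGCATCA, sites of stress-response factors, were matched in none of the 16, against 3.61% and 0.866% of all promoters. Read on the other strand, the ATF4 form is a case of the C/EBP-ATF element. The NF-kB and AP-1 motifs were chosen after the expression values were seen. A match is only a run of letters in this window.

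Levels are given in FPKM, the deposited measure scaled to library depth and transcript length, and comparisons between doses as log2 fold changes of the read counts with their SE, from edgeR's quasi-likelihood test over 12394 genes with a mean of at least 1 FPKM. A gene was called at a Benjamini-Hochberg adjusted p under 0.05. Of the 8 genes, 7 passed this filter, and CFLAR, at a mean of 0.833 FPKM, was tested in the same fit run with no filter over 37118 genes. CFLAR had 1199 to 2109 counts per library. The length implied by the FPKM was longer than the longest GENCODE 29 transcript for all 8 genes, for example 25298 against 14672 bases for CFLAR, 8116 against 2930 bases for CASP8, 6267 against 2563 bases for FAS and 1912 against 1841 bases for FADD. The order of levels, the percentiles and the ratios between genes depend on these lengths, whereas comparisons of 1 gene between doses do not. Total counts per library ran from 65738242 to 75629413.

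Without metformin the 8 genes spanned a wide range of transcript levels. FADD was highest at 27.8 ± 1.05 FPKM, then TNFRSF10B at 21.5 ± 0.149, TNFRSF10A at 6.33 ± 0.263, CASP8 at 5.54 ± 0.317, XIAP at 5.43 ± 0.238, FAS at 2.30 ± 0.0737, CASP9 at 1.90 ± 0.208 and CFLAR at 0.674 ± 0.0441 FPKM (SD, n = 3). In that order only CASP8 and XIAP had overlapping libraries. At 20 mM the libraries of FADD and TNFRSF10B overlapped, as did those of FAS and CASP9. At 40 mM TNFRSF10B stood above FADD in every library, and CASP8 and XIAP overlapped again. Over the 9 libraries TNFRSF10B and FADD stood at the 87.5th and 88.0th percentile of the tested genes and TNFRSF10A at the 55.8th, whereas FAS and CASP9 stood at the 21.0th and 16.6th.

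**Figure D1:**
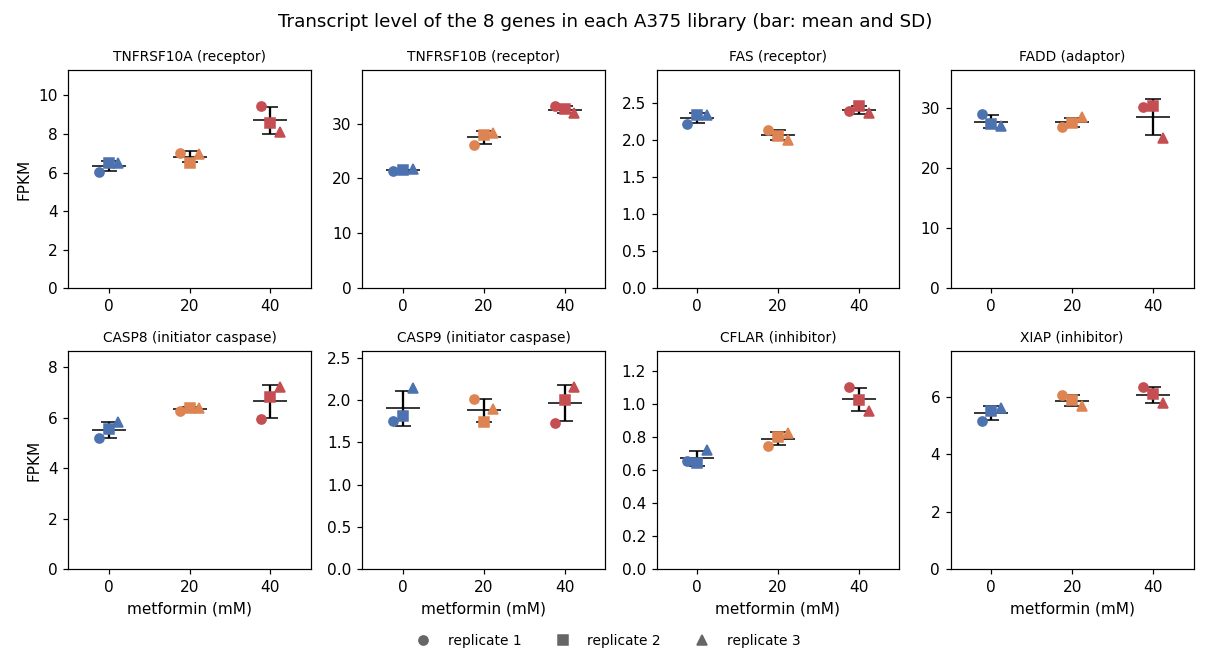
FPKM (vertical axis, from 0) of each gene in each library against the metformin dose in mM; points are libraries, with a symbol for each replicate, and bars are the mean and SD of 3 libraries. TNFRSF10B climbs at each dose, CFLAR and TNFRSF10A are highest at 40 mM, and FADD and CASP9 overlap across doses.

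At 40 mM against 0 mM both TRAIL receptors, CFLAR, CASP8 and XIAP rose, while FAS, FADD and CASP9 were not called. Of the 7 genes that passed the filter, 4 were called, all higher, which is 57.1% of them against 56.2% of all 12394 tested genes, so their number is near the background. Without replicate 1 of 0 mM the count was 2. Calls in the higher direction made up 28.8% of all tested genes and calls in the lower direction 27.4%. Under TPM scaling 61.5% of all calls were higher, against 51.3% under the TMM scaling used here. The median log2 fold change of the 7 was 0.13, against 0.00 over all tested genes. At 20 mM against 0 mM TNFRSF10B alone of the 7 was called, against 31.6% of all genes, and at 40 mM against 20 mM TNFRSF10A and TNFRSF10B were called, against 29.3%. The 2 comparisons with 0 mM share their control libraries.

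TNFRSF10B, the TRAIL receptor also called DR5 (ENSG00000120889, chromosome 8, 23020133 to 23069031, minus strand; as deposited, with no build stated in the sources used), had the highest level of the 3 receptors in the group, in FPKM. It measured 21.3, 21.5 and 21.6 FPKM at 0 mM, 26.2, 27.9 and 28.4 FPKM at 20 mM, and 33.2, 32.6 and 31.9 FPKM at 40 mM. No libraries of different doses overlapped, and each dose stood above the one before it. The log2 fold change was 0.35 ± 0.04 at 20 mM against 0 mM (edgeR, adjusted p = 0.00013), 0.57 ± 0.04 at 40 mM against 0 mM (adjusted p = 1.3e-06) and 0.21 ± 0.04 at 40 mM against 20 mM (adjusted p = 0.0034). All 3 calls were kept under each of 19 alternatives. In these bulk libraries a shift in the mixture of cells and a shift in RNA per cell cannot be told apart.

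TNFRSF10A, the other TRAIL receptor with a death domain, also called DR4 (ENSG00000104689, chromosome 8, 23190452 to 23225102, minus strand), measured 6.03, 6.49 and 6.47 FPKM at 0 mM, 7.01, 6.52 and 6.94 FPKM at 20 mM, and 9.45, 8.55 and 8.10 FPKM at 40 mM. The 40 mM libraries stood clear of the others, whereas the lowest 20 mM library lay just above the highest 0 mM library. The log2 fold change was 0.42 ± 0.07 at 40 mM against 0 mM (edgeR, adjusted p = 0.00038) and 0.32 ± 0.07 at 40 mM against 20 mM (adjusted p = 0.0064). Between 20 and 0 mM it was 0.11 ± 0.07 and was not called (adjusted p = 0.28). TNFRSF10A thus gained most of its difference between 20 and 40 mM and TNFRSF10B between 0 and 20 mM; the difference between these steps was not tested. The ratio of TNFRSF10B to TNFRSF10A FPKM was 3.40 ± 0.127 with 0 mM, 4.04 ± 0.279 with 20 mM and 3.75 ± 0.216 with 40 mM (SD, n = 3).

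Both receptor genes overlap genes of the opposite strand, and no source used here states the strand setting of the counting, so shared reads leave them uncertain. RHOBTB2, over TNFRSF10B, averaged 6.15, 5.79 and 7.24 FPKM at 0, 20 and 40 mM. AC100861 and TNFRSF10A-AS1, over TNFRSF10A, averaged 1.13, 1.11 and 1.24 FPKM and 1.09, 1.40 and 1.15 FPKM at the same doses. Their part in the receptor values was not tested. Of the decoy receptors, which bind TRAIL without signalling death, TNFRSF10C had 3 to 30 counts per library, and TNFRSF10D was not analysed here.

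FAS, the receptor of Fas ligand (ENSG00000026103, chromosome 10, 88990531 to 89017059, plus strand), was lowest at 20 mM, whereas both TRAIL receptors were lowest at 0 mM. Whether its changes differ from theirs was not tested. It measured 2.21, 2.34 and 2.34 FPKM at 0 mM, 2.14, 2.06 and 2.01 FPKM at 20 mM, and 2.40, 2.46 and 2.37 FPKM at 40 mM. The 20 mM libraries were the lowest and the 40 mM libraries the highest, without overlap, yet none of the differences was called. The log2 fold change was -0.16 ± 0.07 at 20 mM against 0 mM (edgeR, adjusted p = 0.12), 0.03 ± 0.07 at 40 mM against 0 mM (adjusted p = 0.73) and 0.19 ± 0.07 at 40 mM against 20 mM (adjusted p = 0.070). The interval of 2 SE at 40 mM against 0 mM ran from -0.11 to 0.17. The last comparison was called under TPM scaling (0.25, adjusted p = 0.022), with DESeq2 (adjusted p = 0.047) and with limma at either pseudocount (adjusted p = 0.035 and 0.034). ACTA2, on the opposite strand over FAS, averaged 0.741, 0.332 and 0.355 FPKM at 0, 20 and 40 mM, and its part in the FAS values was not tested.

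FADD, the adaptor that joins receptors to caspase-8 (ENSG00000168040, chromosome 11, 70203296 to 70207390, plus strand), measured 28.99, 27.4 and 27.0 FPKM at 0 mM, 26.9, 27.6 and 28.5 FPKM at 20 mM, and 30.3, 30.4 and 25.1 FPKM at 40 mM. The doses overlapped, and replicate 3 at 40 mM was the lowest of all 9 libraries. The log2 fold change was 0.01 ± 0.07 at 40 mM against 0 mM (edgeR, adjusted p = 0.94), with an interval of 2 SE from -0.13 to 0.15. Without replicate 3 of 40 mM it was 0.09 (adjusted p = 0.14).

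CASP8, the initiator caspase of the death receptor complex (ENSG00000064012, chromosome 2, 201233443 to 201287711, plus strand), measured 5.20, 5.58 and 5.83 FPKM at 0 mM, 6.27, 6.41 and 6.38 FPKM at 20 mM, and 5.94, 6.81 and 7.20 FPKM at 40 mM. Both metformin doses stood above 0 mM in every library and overlapped each other. At 40 mM against 0 mM CASP8 rose by 0.23 ± 0.07 on the log2 scale (edgeR, adjusted p = 0.014), but without replicate 1 of 0 mM the change was 0.19 and was not called (adjusted p = 0.058). The change at 20 mM against 0 mM, 0.20 ± 0.07, had an adjusted p of 0.0502 and was not called. It was called in 7 of 19 alternatives, among them the fits without replicate 1 or replicate 3 of 40 mM. The 2 metformin doses differed by 0.04 ± 0.07, with an interval of 2 SE from -0.10 to 0.17.

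CASP9, the initiator caspase of the mitochondrial route (ENSG00000132906, chromosome 1, 15490832 to 15524889, minus strand), measured 1.76, 1.81 and 2.14 FPKM at 0 mM, 2.01, 1.74 and 1.89 FPKM at 20 mM, and 1.73, 2.004 and 2.15 FPKM at 40 mM. The libraries of all doses overlapped. At 742 to 938 counts per library it had the lowest counts of the 8 genes. The log2 fold change was 0.01 ± 0.12 at 40 mM against 0 mM (edgeR, adjusted p = 0.95), and its interval of 2 SE, from -0.22 to 0.24, is wide enough to hold changes of the size called for CASP8.

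CFLAR (ENSG00000003402, chromosome 2, 201116154 to 201176687, plus strand) was the inhibitor with the larger change. It measured 0.655, 0.643 and 0.725 FPKM at 0 mM, 0.750, 0.800 and 0.829 FPKM at 20 mM, and 1.10, 1.03 and 0.963 FPKM at 40 mM. No libraries of different doses overlapped. With no filter CFLAR rose by 0.56 ± 0.07 at 40 mM against 0 mM (edgeR, adjusted p = 0.00036), in a fit that called 20.5% of 37118 genes, and by 0.33 ± 0.07 at 40 mM against 20 mM (adjusted p = 0.023), where 7.51% were called. The lower dose gave 0.23 ± 0.07 against 0 mM and was not called (adjusted p = 0.098), where 8.41% were. The call between 40 and 20 mM was lost in 8 of 17 alternatives, with adjusted p-values up to 0.107. These were the fits without replicate 1, 2 or 3 of 20 mM or replicate 1 or 2 of 40 mM, both limma fits, and the fit of only the 6 libraries compared. On the log2(FPKM + 1) scale, which understates changes of low genes, limma gave 0.28 for 40 mM against 0 mM.

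XIAP (ENSG00000101966, chromosome X, 123859724 to 123907020, plus strand), the inhibitor of caspase-9 and the executioner caspases, measured 5.16, 5.49 and 5.63 FPKM at 0 mM, 6.05, 5.88 and 5.68 FPKM at 20 mM, and 6.33, 6.09 and 5.79 FPKM at 40 mM. Both metformin doses stood above 0 mM, and they overlapped each other. The log2 fold change at 40 mM against 0 mM was 0.13 ± 0.05 (edgeR, adjusted p = 0.042), the smallest among the called genes of the group. This call was lost in 10 of 19 alternatives, with adjusted p-values up to 0.15, among them the fits without replicate 1 or 2 of any dose. The lower dose gave 0.11 ± 0.05 against 0 mM (adjusted p = 0.10).

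**Figure D2:**
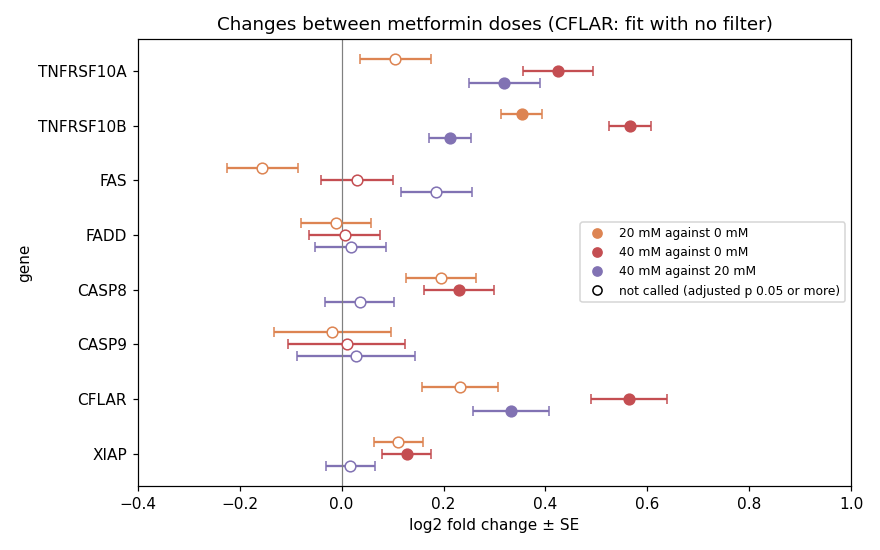
Log2 fold change with its SE (horizontal axis) for each gene in the 3 comparisons between doses; filled points were called at an adjusted p under 0.05. TNFRSF10B at 0.57, CFLAR at 0.56 and TNFRSF10A at 0.42 lie farthest from 0 for 40 mM against 0 mM, and FADD and CASP9 lie at 0.01.

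Inhibitor and enzyme were also set against each other within each library, as a description. The ratio of CFLAR to CASP8 FPKM was 0.126, 0.115 and 0.124 in the 0 mM libraries, 0.120, 0.125 and 0.130 in the 20 mM libraries, and 0.186, 0.151 and 0.134 in the 40 mM libraries. The 40 mM libraries were higher than all others, but their spread was wide, with an SD of 0.0266 around a mean of 0.157. The ratio of XIAP to CASP9 was 2.87 ± 0.212 at 0 mM, 3.13 ± 0.215 at 20 mM and 3.13 ± 0.489 at 40 mM (SD, n = 3), and the doses overlapped.

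**Figure D3:**
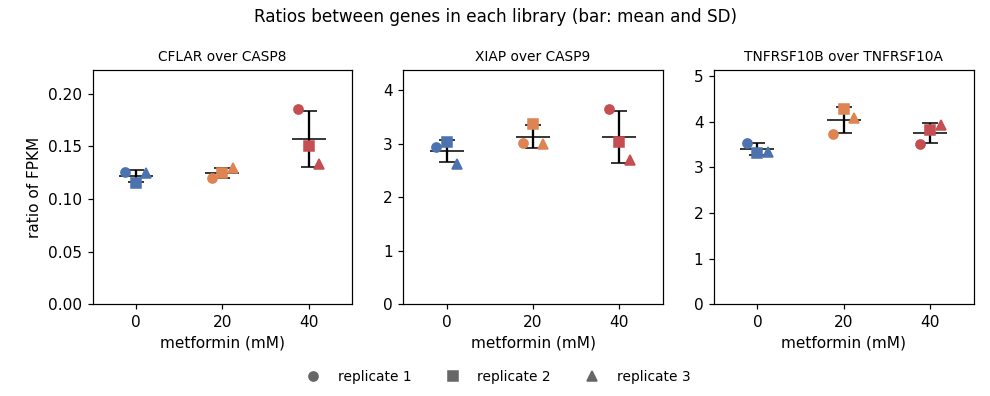
Ratio of the FPKM of 2 genes in each library (vertical axes, from 0) against the metformin dose in mM, with the mean and SD of 3 libraries. CFLAR over CASP8 averaged 0.157 at 40 mM against 0.122 at 0 mM, and replicate 1 of 40 mM is the highest at 0.186.

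One library differed from its group: replicate 3 of 40 mM lay at -22.6 on the second principal component, where replicates 1 and 2 lay at 17.7 and 15.2. Its mitochondrial transcripts made up 4.36% of counts, and theirs 3.01% and 3.27%. It also had the lowest total counts of the 9 libraries, 65738242, against 75518957 and 75629413 for replicates 1 and 2. Among the 40 mM libraries it had the lowest level of TNFRSF10A, TNFRSF10B, FAS, FADD, CFLAR and XIAP and the highest of CASP8 and CASP9. Without it, the changes at 40 mM against 0 mM were 0.47 for TNFRSF10A, 0.58 for TNFRSF10B, 0.17 for CASP8, 0.16 for XIAP and 0.61 for CFLAR, each still called with edgeR (adjusted p from 9.1e-07 to 0.039). Melanoma markers summed to 162 to 182 FPKM at 0 mM, 152 to 173 FPKM at 20 mM and 127 to 154 FPKM at 40 mM, with 5 of 9 at a mean of at least 1 FPKM. SOX10 and MIA led, whereas TYR, MLANA, PMEL and DCT were below 1 FPKM in every library. Keratinocyte markers, 3 of 4 analysed here, summed to 30.7 to 32.5 FPKM at 40 mM and 23.0 to 26.6 FPKM at 0 mM, nearly all from KRT10 and KRT14, with KRT5 below 0.1 FPKM. Fibroblast markers, of which LUM alone of 4 reached 1 FPKM, summed to 5.81 to 6.74 FPKM at 40 mM and 3.16 to 3.84 FPKM at 0 mM. Endothelial markers summed to 0.628 to 0.810 FPKM at 40 mM and 0.222 to 0.293 FPKM at 0 mM, and leukocyte markers, 3 of 4 analysed here, stayed at or below 0.610 FPKM in every library. The part of these shifts in the changes above was not tested.

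The rest of the pathway was followed in 10 lists of 89 gene symbols, of which 62 were tested. SEPTIN4 and MARCHF8 were each also listed under an older symbol. At 40 mM against 0 mM 25 of the 62 rose and 13 fell, which is 61.3% of them beside the 56.2% of all tested genes, with a median log2 fold change of 0.10. At 20 mM against 0 mM 13 rose and 10 fell, beside 16.3% of all tested genes called higher and 15.2% called lower. At 40 mM against 20 mM 13 rose and 4 fell, beside 14.3% called higher and 15.1% called lower, with a median of 0.08. Under TPM scaling 70.3% of all calls between 40 and 20 mM were higher, against 48.7%. The count of list genes called between 40 and 20 mM was 17 in all, and 9 to 23 when 1 library was left out, with the low counts without replicate 2 (9) or replicate 3 (10) of 20 mM or replicate 1 of 40 mM (10).

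None of the 3 ligands analysed here passed the filter. TNF, LTA and TNFSF15 had at most 18 counts in a library, and TNFSF10 and FASLG were not analysed here. Of the 6 other tested TNF receptor family members, TNFRSF11B, a soluble receptor that binds TRAIL and RANKL, rose by 0.64 ± 0.15 at 40 mM against 0 mM (edgeR, adjusted p = 0.0040). TNFRSF21, a death domain receptor also called DR6, fell to 20.3 ± 1.09 FPKM at 40 mM, against 25.6 ± 0.283 FPKM at 0 mM (log2 fold change -0.37 ± 0.05, adjusted p = 6.5e-05). It was also lower at 20 mM, by a log2 fold change of -0.32 ± 0.05 (adjusted p = 0.00053). The other 4 were not called at 40 mM. The share called at 40 mM against 0 mM was 33.3%, beside 56.2% of all tested genes.

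Among 14 adaptors and parts of the signalling complex, 6 rose and 3 fell at 40 mM against 0 mM. The share called was 64.3%, beside 56.2% of all tested genes. PEA15, a death effector domain protein that can bind FADD and caspase-8, measured 175 ± 14.4 FPKM at 40 mM against 107 ± 6.40 FPKM at 0 mM, a log2 fold change of 0.68 ± 0.07 (edgeR, adjusted p = 1.2e-05). FAIM, known as an inhibitor of Fas-mediated apoptosis, rose by 0.55 ± 0.06 (adjusted p = 2.4e-05), and RBCK1, a subunit of the linear ubiquitin ligase, by 0.57 ± 0.06 (adjusted p = 3.1e-05). All 3 also rose at 20 mM against 0 mM, by 0.30 ± 0.07, 0.31 ± 0.06 and 0.61 ± 0.06 in that order (adjusted p = 0.0069, 0.0031 and 7.4e-05).

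Of 5 other tested initiator and inflammatory caspases and their platforms, 1 rose and 1 fell at 40 mM against 0 mM. The share called was 40%, beside 56.2% of all tested genes. CASP4, an inflammatory caspase, rose by 0.50 ± 0.09 (edgeR, adjusted p = 0.00081), and PIDD1, the platform of caspase-2, showed a log2 fold change of -0.65 ± 0.10 (adjusted p = 0.00019). The CASP4 change of 0.34 at 20 mM against 0 mM was called at an adjusted p of 0.016 but not without replicate 2 of 0 mM or replicate 1 of 20 mM.

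CASP10, which encodes another initiator caspase that binds FADD, lies between CFLAR and CASP8 (ENSG00000003400, chromosome 2, 201182898 to 201221665, plus strand), 6210 bases after the end of CFLAR and 11777 bases before the start of CASP8. Its mean of 0.632 FPKM was under the filter, and it is named after its values were seen. It measured 0.341, 0.367 and 0.343 FPKM at 0 mM, 0.633, 0.658 and 0.693 FPKM at 20 mM, and 0.977, 0.820 and 0.853 FPKM at 40 mM. No libraries of different doses overlapped. With no filter the log2 fold change was 0.91 ± 0.12 at 20 mM against 0 mM (edgeR, adjusted p = 0.0010) and 1.28 ± 0.12 at 40 mM against 0 mM (adjusted p = 3.1e-05). It was 0.37 ± 0.11 at 40 mM against 20 mM and was not called (adjusted p = 0.088). At 40 mM against 0 mM CASP10 thus had the largest log2 fold change of the 3 neighbours, then CFLAR, then CASP8; the differences between them were not tested. On the log2(FPKM + 1) scale the CASP10 change at 40 mM was 0.48. NLRP1, an inflammasome sensor also under the filter, was likewise chosen after its values were seen. It fell to 0.242 ± 0.0425 FPKM at 40 mM, against 1.04 ± 0.167 FPKM at 0 mM (log2 fold change -2.14 ± 0.17, adjusted p = 1.3e-05). Of the other list genes under the filter, only ERN1, of the receptor trafficking list, was called at 40 mM against 0 mM (0.54 ± 0.12, edgeR adjusted p = 0.0079). With no filter 20.5% of 37118 genes were called in that comparison.

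Of 12 executioner caspases and substrates, 6 rose and 4 fell at 40 mM against 0 mM, and both directions were seen among the substrates. The share called was 83.3%, beside 56.2% of all tested genes. The kinase PAK2 showed a log2 fold change of -0.47 ± 0.05 (edgeR, adjusted p = 1.7e-05) and the lamin gene LMNA -0.37 ± 0.05 (adjusted p = 7.1e-05), while ACIN1, a chromatin condensation factor, rose by 0.23 ± 0.04 (adjusted p = 0.00046). CASP6, an executioner caspase named after its values were seen, had a change of 0.33 ± 0.13 (edgeR, adjusted p = 0.048). This call was lost without replicate 1 or 3 of 0 mM, 1 or 2 of 20 mM, or 1 or 2 of 40 mM. It was also lost with no filter and in the fit of only the 6 libraries compared.

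Among 3 other tested inhibitor of apoptosis genes, BIRC2, which encodes the ubiquitin ligase cIAP1, rose by 0.22 ± 0.06 at 40 mM against 0 mM (edgeR, adjusted p = 0.012). BIRC5 and BIRC6 were not called, which left 33.3% called, beside 56.2% of all tested genes. Of 6 tested IAP antagonists and apoptosome genes, APAF1, the scaffold of the apoptosome, rose by 0.42 ± 0.05 (adjusted p = 6.8e-05) and also at 20 mM against 0 mM, by 0.26 ± 0.05 (adjusted p = 0.0040). HTRA2, a mitochondrial protease that antagonises XIAP, rose by 0.26 ± 0.08 (edgeR, adjusted p = 0.016). This call was lost with no filter, and without replicate 1 of 0 mM or replicate 2 of 40 mM. CYCS, cytochrome c, had a change of -0.26 ± 0.10 (edgeR, adjusted p = 0.049), a call lost without any 1 of the 0 mM or 20 mM libraries. Of these 6 tested genes 50% were called at 40 mM against 0 mM, beside 56.2% of all tested genes. In the necroptosis list PGAM5 had a change of -0.14 ± 0.05 (edgeR, adjusted p = 0.035). This call was lost without replicate 2 or 3 of 0 mM, 2 of 20 mM, or 2 or 3 of 40 mM. MLKL was not called, so 50% of the 2 tested genes were, and RIPK3 was not analysed here. The CYCS and PGAM5 calls were also lost with no filter, at a mean of at least 5 FPKM and under TPM scaling. Both limma fits and the fit of only the 6 libraries compared lost them too.

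Of 9 genes known as regulators of the TRAIL receptors, 5 rose and 2 fell at 40 mM against 0 mM. The share called was 77.8%, beside 56.2% of all tested genes. DDIT3, which encodes CHOP, a stress factor known to act on the TNFRSF10B promoter in other human cells, rose by 2.77 ± 0.12 (edgeR, adjusted p = 5.3e-08), and CEBPB, a bZIP factor, rose by 1.00 ± 0.06 (adjusted p = 5.2e-07). Of 5 tested genes of receptor glycosylation, trafficking and degradation, 60% were called, near the 56.2% of all tested genes. At 40 mM against 0 mM 3 rose and none fell. They were GALNT14, an O-glycosylation enzyme known to act on TRAIL receptors, at 0.47 ± 0.05 (adjusted p = 3.6e-05), LGALS3, the glycan-binding galectin-3, at 0.45 ± 0.06 (adjusted p = 0.00014), and ITCH, a ubiquitin ligase known to act on c-FLIP in mice, at 0.18 ± 0.04 (adjusted p = 0.0031).

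**Figure D4:**
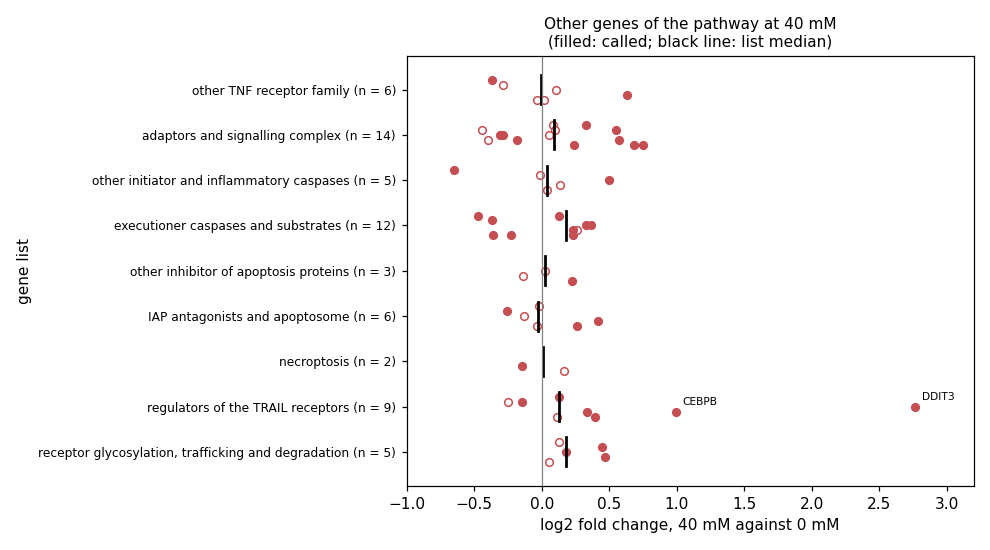
Log2 fold change at 40 mM against 0 mM (horizontal axis) of 59 of the 62 tested genes in 9 pathway lists; filled points were called, open points were not, and the black line is the median of each list over all its tested genes, n as given beside its name. The genes drawn lie within 1 of 0 except DDIT3 at 2.77; CEBPB is next at 1.00.

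The genes whose pattern over the 9 libraries was most like that of a called gene were found by the root mean square difference of centred log2 CPM, among 6983 genes with a mean of at least 5 FPKM. For TNFRSF10B these were RNF114, a ubiquitin ligase, at 0.0302 and MPZL1, a membrane glycoprotein, at 0.0372, against 0.235 for the spread of TNFRSF10B itself. RNF114 averaged 19.8, 25.2 and 29.7 FPKM at 0, 20 and 40 mM. For TNFRSF10A they were MAP2K3, a kinase upstream of p38, at 0.0400 and ZFC3H1 at 0.0458, against 0.190 for TNFRSF10A itself. MAP2K3 averaged 21.0, 22.5 and 28.9 FPKM at 0, 20 and 40 mM. CFLAR was most like FCHSD2 at 0.0371 and RAB29, a small GTPase, at 0.0555, against 0.247 for CFLAR itself. CASP8 was most like ANXA11, an annexin, and PPIL4, both at 0.0382, against 0.127 for CASP8 itself. XIAP was most like FBXW11, an F-box protein, at 0.0317 and BLOC1S6 at 0.0364, against 0.0713 for XIAP itself.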

How the data were processed

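Polyadenylated RNA from 9 A375 libraries was sequenced paired-end after a dUTP strand-marking preparation, per the labels' protocols. Read counts per gene and library were deposited by the authors and are used as given. FPKM per gene and library were deposited by the authors in the same table, per the file headers. Of tools, the submitters' processing notes name StringTie 2.1.6. No source used here states the aligner, genome build, annotation or strand setting. Of the 8 genes, 1 has the same start and end in GENCODE release 29, as do 22348 of all 37118.

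Counts were scaled by TMM and tested with edgeR 4.0.16 (R 4.3.3) in 1 fit of all 9 libraries, for genes with a mean of at least 1 FPKM, with Benjamini-Hochberg adjustment over all tested genes. SE is the size of the change over the square root of its F. The alternatives were no filter, at least 5 FPKM, median of ratios and TPM scaling, DESeq2 1.42.0, limma 3.58.1 on log2(FPKM + 1) and log2(FPKM + 0.1), only the 6 libraries compared, a replicate block, and leaving out each library. A filter of at least 10 counts in 3 libraries, and for CFLAR these alternatives with no filter, were chosen after seeing the data. The tests were run first on simulated data.

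The members and lists were chosen with earlier results of these data known. The text names all 8 members. It names every called gene at 40 mM against 0 mM in lists of up to 6 tested genes, and the 3 with the smallest p in longer lists. It adds the 2 genes most like each called member. Some genes, 1 of them under this rule, are counted in their lists but not reported or drawn here. With 65738242 counts or more per library, well-counted genes are limited by variation among libraries rather than by counting error.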

Additional observations from a re-analysis of the deposited data

How the results depend on the processing

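TNFRSF10A and TNFRSF10B kept direction and call in each comparison under all 19 alternatives, as did CFLAR at 40 mM against 0 mM under 17. At 20 mM against 0 mM, 2 of the tested members were called, not 1, with DESeq2, at a mean of at least 5 FPKM, with only the 6 libraries compared, under TPM scaling and under the replicate block, CASP8 being added each time; the count was 1 to 2 when 1 library was left out. At 40 mM against 0 mM it was 2 to 4 when 1 library was left out, with 2 without replicate 1 of 0 mM. At a mean of at least 5 FPKM, fewer genes were tested and 2517, 4245 and 2367 were called at 20 against 0, 40 against 0 and 40 against 20 mM, in place of 3911, 6962 and 3637. Leaving out 1 library gave 2408 to 4065 genes for 40 against 20 mM, the lowest without replicate 2 of 20 mM, and 9 to 23 list genes; with no filter 8 list genes were called. The cause was not tested.

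Under TPM scaling 61.5% of calls at 40 mM against 0 mM were higher (4238 higher and 2654 lower), against 51.3%, and at 40 mM against 20 mM 70.3% (2786 higher and 1179 lower), against 48.7%. With limma the share of higher calls at 40 mM against 20 mM was 59.9% and 59.4%. CFLAR at 20 mM against 0 mM was called with DESeq2 (0.22, adjusted p = 0.044).

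Reversals were seen only in uncalled changes near 0. FADD was 0.00416 at 20 mM against 0 mM with at least 5 FPKM, and at 40 mM against 0 mM -0.00710 with no filter and -0.00590 with at least 10 counts. CASP9 at 40 mM against 0 mM was -0.00344 and -0.00241 under those 2 filters. Leaving out 1 library gave, for 20 against 0, 40 against 0 and 40 against 20 mM, -0.0346 to 0.0278, -0.0369 to 0.0881 and -0.0259 to 0.0990 for FADD and -0.0687 to 0.0717, -0.0640 to 0.0999 and -0.0457 to 0.111 for CASP9. For 40 mM against 20 mM it gave -0.0286 to 0.111 for CASP8 and -0.0137 to 0.0469 for XIAP.

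Same-numbered libraries correlated at -0.101 to 0.186 in their deviations from the group means (9 pairs, 3 over 0.1), and a library correlated best with its own number in 7 of 18 cases, so the numbers were not taken to pair the libraries. With the replicate block, 4245, 7215 and 3982 genes were called in the same order of comparisons. CASP8 at 20 mM against 0 mM was then called (0.20, adjusted p = 0.018) and XIAP at 40 mM against 0 mM was not (0.13, adjusted p = 0.052).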
